A study of Mus musculus with 29 samples.

Results

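The livers of 5 old male mice given HDM201 were compared with those of 4 old male mice given vehicle, over the 14109 genes with enough reads to test among 55421 genes counted. These 9 mice were all the old males with read counts, out of 27 mice with counts and 29 mice labelled in the series. Both groups were C57BL/6J males, 24 months old, with no other allele given in the labels, and each library came from a separate mouse. They were dosed in the morning by oral gavage once a day for 14 days, with HDM201 at 10 mg/kg or with its methylcellulose vehicle, and polyadenylated RNA of the liver was sequenced in bulk. The question was what an inhibitor of MDM2 does to gene expression in the liver of naturally aged males. Another vehicle male, old vehicle male 1, had FPKM values only and entered no test on counts, so the mice below carry the numbers 2 to 5 for vehicle and 1 to 5 for HDM201. Old females of the same strain, 5 with HDM201 and 4 with vehicle on the same schedule, are set beside the males for some genes. They were 20 months old by the labels, an age that the study's methods give differently, so sex and age cannot be told apart in any such comparison.

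MDM2 binds the transcription factor p53 and marks it for degradation, and HDM201 occupies the pocket of MDM2 that holds p53. Stabilized p53 switches on genes that stop the cell cycle (Cdkn1a), trigger apoptosis (Bax) or feed back on p53 itself (Mdm2, Ccng1). In male rodent liver, pulses of growth hormone act through the receptor Ghr, the kinase JAK2 and STAT5 to set the male pattern of gene expression, and the SOCS family proteins Cish and Socs2 are induced by STAT5 and dampen that signal.

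Between 16485900 and 19671283 reads were counted on genes in these mice. Albumin, the main secreted product of hepatocytes, stood between 61071 and 136380 CPM (counts scaled to a library size set by TMM), whereas 8 of 11 pancreas markers had no read in any of the 9 mice. Old vehicle male 1 stood apart: Spearman's rho of its FPKM with those of the other old males was 0.884 to 0.908 across genes, against 0.939 to 0.963 among the other 9. Old HDM201 males 4 and 5 also differed from the remaining mice in acute phase and cell cycle transcripts, and results that rest on them are given without them. In bulk tissue, fewer cells of a type and less RNA per cell cannot be told apart.

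A single gene passed the test (edgeR's quasi-likelihood test with Benjamini-Hochberg FDR under 0.05), which is 0.00709% of the genes tested. At an unadjusted p under 0.05, 816 genes (5.78%) were higher and 894 (6.34%) lower with HDM201. Of all genes tested, 7449 (52.8%) had a log2 fold change above 0. These shares are the comparison for the counts of every gene list below. The CPM ranges of the groups did not overlap for 237 genes (1.68%) that were higher and 342 (2.42%) that were lower with HDM201. DESeq2 gave an adjusted p to 15117 genes and called 56 higher (0.37%) and 95 lower (0.628%). All 151 of its calls had an edgeR p under 0.05 in the same direction, and 117 of them had groups without overlap. In old females the same test called 758 genes of 14445. The common biological coefficient of variation was 0.204 in old males and 0.141 in old females, and its part in the difference between these counts was not tested.

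Cish was the gene called. It encodes a feedback inhibitor of cytokine receptors that signal through STAT5 (ENSMUSG00000032578.7, GRCm38 chromosome 9, 107296026 to 107302784, plus strand, protein-coding). Vehicle mice 2 to 5 had 48.1, 33.0, 27.6 and 24.3 CPM, and HDM201 mice 1 to 5 had 7.70, 9.77, 9.90, 12.3 and 8.28 CPM. Every HDM201 male lay below every vehicle male, with a mean of 9.59 ± 1.79 CPM (SD, n = 5) against 33.2 ± 10.5 CPM (SD, n = 4). Cish fell by 1.79 in log2 units with an SE of 0.20 (edgeR FDR 0.0350). Old vehicle male 1 lay on the same side, with a scaled FPKM of 19.6 against 7.58 to 13.5 in the other vehicle males and 2.28 to 4.22 with HDM201. DESeq2 called the gene too (adjusted p 1.03e-12). The edgeR call was lost when HDM201 male 1, 2, 3 or 5 was left out (FDR 0.161, 0.0666, 0.183 and 0.181), while the fold change stayed between -1.92 and -1.56 whichever mouse was dropped. A two-sided exact permutation test of log2(CPM + 1) gave 0.00794, the smallest p that 5 against 4 mice allow. It was 0.0556 after adjustment over 14 genes. Those 14 genes, to which every adjusted permutation p below also refers, were listed by hand with earlier results of these data known. The test uses the same counts as edgeR, so these p-values are not independent evidence.

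In old females Cish did not go the same way. Vehicle females had 13.3, 18.6, 17.4 and 29.4 CPM, and HDM201 females had 46.9, 26.2, 27.1, 22.6 and 22.8 CPM. The female groups overlapped and the log2 fold change was 0.56 (edgeR FDR 0.207). The male effect differed from the female one by -2.36 on the log2 scale (SE 0.35, edgeR interaction FDR 0.0400).

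**Figure D1:**
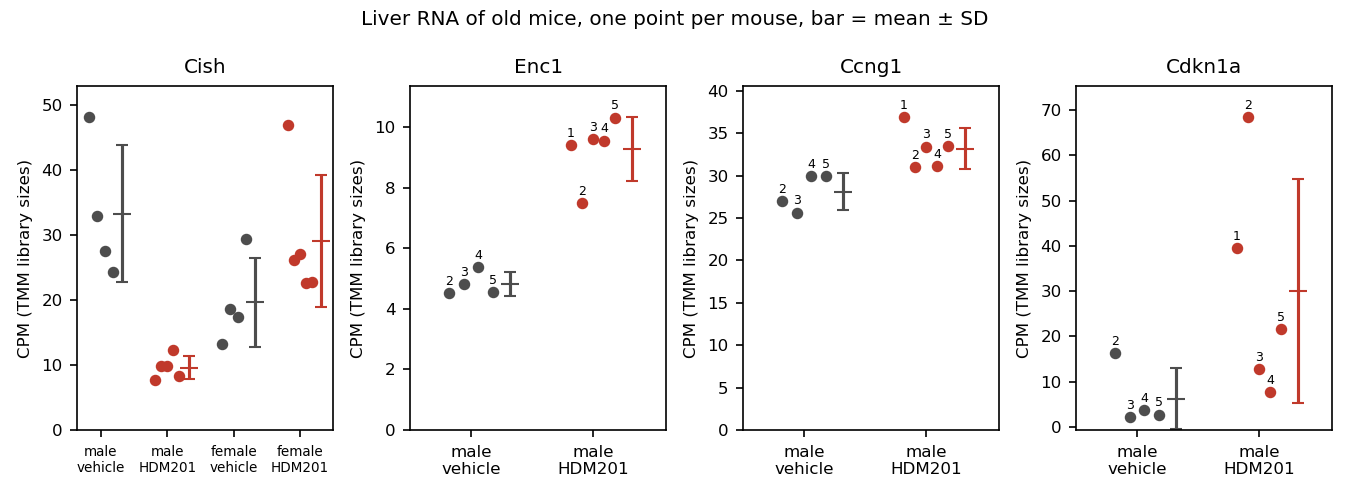
Level of 4 genes in each mouse in CPM (y axis), with vehicle in grey, HDM201 in red, numbers naming the male mice in the last 3 panels and bars giving mean ± SD beside the points. Cish is at 7.70 to 12.3 CPM in HDM201 males and at 24.3 CPM or more in vehicle males, Enc1 and Ccng1 separate the male groups, and Cdkn1a overlaps because vehicle male 2 is at 16.3 CPM.

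Of the p53 pathway, Trp53, Mdm2 and Mdm4 differed little in RNA, whereas Cdkn1a and Enc1 had larger fold changes, and none of these genes passed edgeR's FDR. Trp53, which encodes p53, had a log2 fold change of 0.10 (SE 0.08, edgeR FDR 0.599), and its negative regulator Mdm4 one of -0.14 (SE 0.09, edgeR FDR 0.570). Mdm2, the target of the drug and a p53 target gene, had 36.4, 33.8, 35.7 and 29.9 CPM with vehicle and 34.2, 32.2, 34.0, 33.1 and 36.3 CPM with HDM201. These ranges coincide, and the log2 fold change was 0.00 (SE 0.08, edgeR FDR 0.998), beside 0.33 in females (edgeR FDR 0.0350). The difference between the sexes was -0.33 and was not called (edgeR interaction FDR 0.103).

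Cdkn1a encodes p21, an inhibitor of cyclin-dependent kinases. Vehicle males had 16.3, 2.17, 3.68 and 2.73 CPM, and HDM201 males had 39.5, 68.4, 12.8, 7.75 and 21.7 CPM. Apart from vehicle male 2, every vehicle male was below every HDM201 male, and the spread with HDM201 covered 7.75 to 68.4 CPM. The difference came to 2.26 in log2 units (SE 0.74, edgeR FDR 0.298), and the exact permutation p was 0.0476 (adjusted 0.133). Old vehicle male 1 had a scaled FPKM of 15.8, above the 1.19 to 8.75 of the other vehicle males and inside the 4.17 to 36.9 of the HDM201 males.

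Ccng1, a p53 target that encodes cyclin G1, separated the groups by a smaller step. It had 27.0, 25.6, 29.9 and 29.9 CPM with vehicle and 36.9, 31.0, 33.4, 31.1 and 33.4 CPM with HDM201. The groups did not overlap, the difference came to 0.24 in log2 units (SE 0.08, edgeR FDR 0.309), and the exact permutation p was 0.00794 (adjusted 0.0556). The scaled FPKM of old vehicle male 1 went against this separation, at 13.8, above the 8.13 to 9.88 of the HDM201 males. Bax, a pore-forming protein of apoptosis, had a log2 fold change of 0.17 (SE 0.09, edgeR FDR 0.472).

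Among 19 genes listed as apoptosis targets of p53, 15 had a log2 fold change above 0. The list's median was 0.12 (0.21 without vehicle male 2) against 0.01 over all genes tested. At an unadjusted p under 0.05, 6 of the 19 were higher and 1 was lower, beside 5.78% and 6.34% of all genes, and none passed the FDR. Zmat3, an RNA-binding p53 target, had 9.56, 8.70, 8.71 and 9.16 CPM with vehicle and 16.3, 12.9, 12.7, 10.8 and 11.7 CPM with HDM201. Its groups did not overlap (log2 fold change 0.51, SE 0.12, edgeR FDR 0.221), but old vehicle male 1, at a scaled FPKM of 1.78, lay inside the 1.26 to 2.19 of the HDM201 males. Phlda3, an inhibitor of AKT signalling, overlapped only at vehicle male 2 and HDM201 male 5 (log2 fold change 0.80, edgeR FDR 0.266). The member of this list with the smallest p in the other direction was Ercc5, at -0.22 (edgeR FDR 0.317). It encodes a DNA repair nuclease.

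The 16 genes of cell cycle arrest split evenly in sign, with a median of 0.01 that ran from -0.13 without vehicle male 3 to 0.16 without vehicle male 2, and 3 were higher at an unadjusted p under 0.05, namely Plk2, Cdkn1a and Ccng1. Of the 21 targets in DNA repair and metabolism, 2 were higher and 4 lower at that p, with a median of 0.03 (-0.04 without HDM201 male 5). Lpin1, a phosphatidate phosphatase that is also listed under fat synthesis, was the lower member with the smallest p, at -1.31 (edgeR FDR 0.276). Of the 90 testable genes among the published p53 targets that the study used, 53 had a log2 fold change above 0. The share over all genes tested was 52.8%. At an unadjusted p under 0.05, 12 of the 90 were higher and 4 lower, beside 5.78% and 6.34% of all genes. The list's median was 0.07 (0.03 without HDM201 male 4), and none of the 90 passed edgeR's FDR.

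Enc1, a p53-induced gene that encodes an actin-binding adaptor, had the smallest p of any gene that was higher with HDM201 (GRCm38 chromosome 13, 97241105 to 97253034, plus strand). Vehicle males had 4.51, 4.82, 5.38 and 4.55 CPM, and HDM201 males had 9.41, 7.50, 9.61, 9.56 and 10.3 CPM. The groups were far apart relative to their spread, with a log2 fold change of 0.95 (SE 0.13, edgeR FDR 0.0974, DESeq2 adjusted p 2.04e-06). The gene did not pass the FDR, and old vehicle male 1 stood against the separation, with a scaled FPKM of 2.34, above the 1.45 to 2.04 of the HDM201 males. Without HDM201 male 2 it passed (edgeR FDR 0.0463). Females had a log2 fold change of 0.67 (edgeR FDR 0.0198).

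The growth hormone pathway was described by 24 genes, of which 15 had a log2 fold change below 0, with a median of -0.21 that was -0.02 without vehicle male 2. Cish was called, and at an unadjusted p under 0.05, 8 were lower and 1 was higher. Among the feedback inhibitors, Socs2 had 87.0, 29.0, 44.3 and 32.9 CPM with vehicle and 21.8, 36.1, 8.79, 14.7 and 8.50 CPM with HDM201. HDM201 male 2 lay within the vehicle range and the other 4 below it, and the difference did not pass (log2 fold change -1.42, SE 0.45, edgeR FDR 0.286, exact permutation p 0.0397, adjusted 0.133). Females had 0.79 for Socs2 (edgeR FDR 0.0989), and the interaction FDR was 0.0695. Socs1 and Socs3 had log2 fold changes of 0.36 and 0.40 (edgeR FDR 0.727 and 0.665).

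Of the upstream members, Ghr, the receptor, had 469, 445, 452 and 529 CPM with vehicle and 433, 428, 416, 337 and 353 CPM with HDM201. The ranges did not overlap, but the log2 fold change of -0.27 (SE 0.10) had an edgeR FDR of 0.356. Stat5a and Stat5b, the transcription factors, had log2 fold changes of 0.33 and 0.07 (edgeR FDR 0.490 and 0.862), and the kinase Jak2, chosen after its values were seen, one of 0.03. Igf1, the hormone that growth hormone induces in liver, had -0.26 (SE 0.11, edgeR FDR 0.402), and Igfals, which carries it in plasma, -0.34 (SE 0.12, edgeR FDR 0.324). By FPKM with old vehicle male 1 included, the differences of Ghr and Igf1 were above 0 instead, at 0.05 for each on the log2(FPKM + 1) scale.

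STAT5 binds the palindrome TTCNNNGAA, which was searched on both strands in the 250 bases before the start of each gene. It was in the window of 5 of the 17 growth hormone pathway genes with a window (29.4%), against 8.13% of all 27025 genes. Igfals is shown because it is the member with the motif and the smallest p. The stretch is from RefSeq on GRCm38.p6, written 5′ to 3′ on the gene's strand and limited to the part that holds no annotated exon, and capitals mark the motif.
Igfals: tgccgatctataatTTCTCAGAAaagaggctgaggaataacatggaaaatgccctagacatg
The stretch is chr17:24877594-24877655 on the plus strand, and the motif starts 236 bases before the start site. The window of Cish held no match to these letters, and it lies inside the first exon of a longer annotated transcript, so it is not printed.

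Bcl6 and Onecut1, chosen after their values were seen, stood on opposite sides. Bcl6, a repressor enriched in male liver, had 6.90, 61.8, 14.4 and 20.2 CPM with vehicle and 85.2, 56.7, 66.8, 22.1 and 64.9 CPM with HDM201. Only vehicle male 3 reached the HDM201 range, and the log2 fold change was 1.2 (SE 0.56, edgeR FDR 0.421). Onecut1, a hepatic transcription factor, had -1.22 (SE 0.45, edgeR FDR 0.338).

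Genes that differ in level between male and female liver are the textbook readout of growth hormone pulses. Of 25 testable male-biased genes, 23 had a log2 fold change below 0, with a median of -0.58 (-0.30 without vehicle male 5), and 5 were lower and 0 higher at an unadjusted p under 0.05. Egfr, the epidermal growth factor receptor, had 614, 527, 515 and 731 CPM with vehicle and 487, 365, 325, 413 and 446 CPM with HDM201 (log2 fold change -0.55, SE 0.14, edgeR FDR 0.244, DESeq2 adjusted p 0.0299). Its groups did not overlap, nor did those of Serpina1e, a protease inhibitor, at -0.62 (edgeR FDR 0.250). For Egfr, old vehicle male 1 had a scaled FPKM of 38.7, below the 49.3 to 69.8 of the HDM201 males. The list was uneven across mice: vehicle males 3 and 5 summed to 22862 and 25287 CPM, against 12497 and 15830 CPM in vehicle males 2 and 4 and 12297 to 17335 CPM with HDM201.

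Female-biased genes did not mirror this. Of 17 testable members, 13 had a log2 fold change below 0, with a median of -0.35 that reached -0.62 without vehicle male 3 or HDM201 male 2. Cyp2a4, a steroid hydroxylase, may share reads with Cyp2a5, which was not tested. The level of Cyp2a4 was 245, 0.235, 90.9 and 2.57 CPM with vehicle and 2.34, 10.6, 0.932, 5.99 and 0.397 CPM with HDM201. Here vehicle males 2 and 4 were high, the reverse of the male-biased sums, and no member passed the FDR. Cyp39a1, an oxysterol hydroxylase, had groups without overlap at -0.57 (SE 0.11, edgeR FDR 0.175), but old vehicle male 1, at a scaled FPKM of 2.13, was below all HDM201 males.

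The 4 globin transcripts tested stood lower in every HDM201 male than in every vehicle male. Hbb-bs, a beta chain of adult hemoglobin, had 199, 95.1, 497 and 83.5 CPM with vehicle and 55.0, 39.2, 48.6, 20.0 and 32.4 CPM with HDM201 (log2 fold change -2.48, SE 0.50, edgeR FDR 0.176). Hba-a2, an alpha chain, had the smallest p of the family, at -2.40 (SE 0.38, edgeR FDR 0.149). Hba-a1 and Hbb-bt stood at -2.26 and -2.17 (edgeR FDR 0.196 each). These genes come in near-identical pairs, so reads may be split between Hba-a1 and Hba-a2 or between Hbb-bs and Hbb-bt. None passed edgeR's FDR, DESeq2 called all 4 (adjusted p 1.95e-07 to 0.0193), and females had log2 fold changes of -1.74 to -1.31.

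The erythroid list as a whole had a median of -2.21 over 6 genes. Alas2, the first enzyme of heme synthesis in red cells, was at -0.37 (edgeR FDR 0.422). Vehicle male 4, the highest in globins, also had the highest summed level of the list, 1171 CPM against 292 to 465 CPM in the other vehicle males and 108 to 213 CPM with HDM201. Without that mouse the list's median was -1.31. The part of blood held in the liver samples in this difference was not tested.

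**Figure D2:**
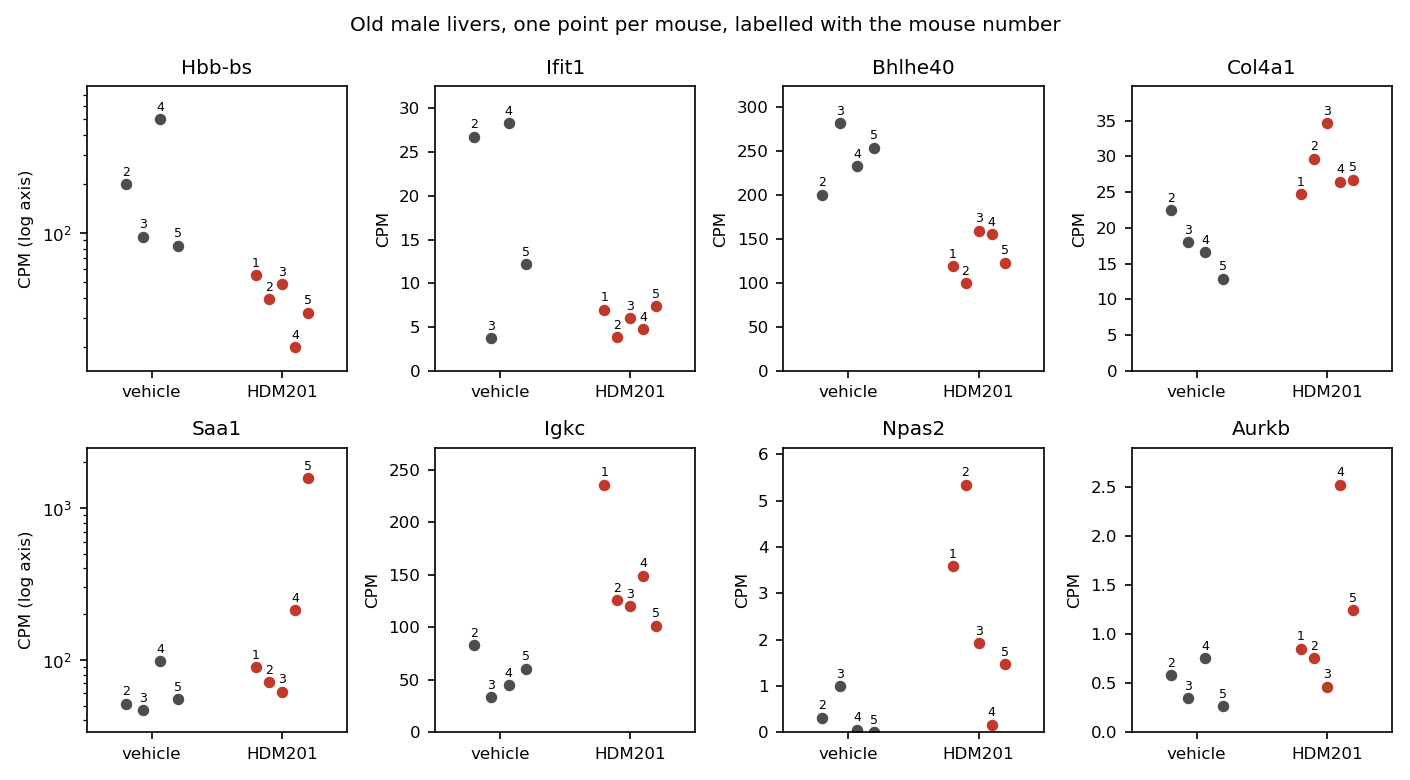
CPM of 8 genes in each old male, labelled with the mouse number (vehicle grey, HDM201 red; the axes of Hbb-bs and Saa1 are logarithmic and the others start at 0). Hbb-bs, Bhlhe40, Col4a1 and Igkc separate the groups, Ifit1 is high in vehicle males 2 and 4, and Saa1 and Aurkb are high in HDM201 males 5 and 4.

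The circadian clock had the highest share of genes at a small p among the lists with at least 10 members. Of 20 genes, 9 were lower and 1 was higher at an unadjusted p under 0.05, and the median log2 fold change was -0.46. Bhlhe40, a repressor that responds to the clock and to feeding, had 201, 282, 233 and 254 CPM with vehicle and 120, 99.8, 160, 156 and 123 CPM with HDM201. The groups did not overlap (log2 fold change -0.88, SE 0.15, edgeR FDR 0.149, DESeq2 adjusted p 7.60e-05). The separation did not extend to old vehicle male 1, at a scaled FPKM of 46.5, inside the 31.7 to 50.2 of the HDM201 males. Female mice had 0.19 for the same gene (interaction FDR 0.0860).

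Npas2, a partner of BMAL1 in activating clock genes, stood on the other side. It had 0.319, 0.999, 0.0585 and 0 CPM with vehicle and 3.59, 5.34, 1.92, 0.165 and 1.47 CPM with HDM201. HDM201 male 4 lay within the vehicle range and the log2 fold change was 2.86 (SE 0.96, edgeR FDR 0.309). Usp2, a rhythmic deubiquitinase, had 77.0, 32, 69.2 and 82.2 CPM with vehicle and 18, 16.6, 18, 51.3 and 22.7 CPM with HDM201, where male 4 was again the mouse inside the vehicle range (log2 fold change -1.36, SE 0.36, edgeR FDR 0.250).

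The output factors Tef and Ciart, chosen after their values were seen, had the same exception. Tef had 191, 199, 244 and 245 CPM with vehicle and 115, 101, 160, 218 and 130 CPM with HDM201. Ciart had 9.56, 8.58, 10.9 and 15.2 CPM with vehicle and 1.6, 1.62, 4.66, 12 and 3.85 CPM with HDM201. In both, HDM201 male 4 was the single treated mouse within the vehicle range, and the log2 fold changes were -0.60 and -1.22 (edgeR FDR 0.309 and 0.379). The mice were killed in the morning, and the hour for each mouse is not given in the sources used here.

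The E-box CACGTG, bound by CLOCK and BMAL1, was searched in the same way. Tef and Ciart are shown because they have the smallest p among the members that hold it outside annotated exons.
Tef: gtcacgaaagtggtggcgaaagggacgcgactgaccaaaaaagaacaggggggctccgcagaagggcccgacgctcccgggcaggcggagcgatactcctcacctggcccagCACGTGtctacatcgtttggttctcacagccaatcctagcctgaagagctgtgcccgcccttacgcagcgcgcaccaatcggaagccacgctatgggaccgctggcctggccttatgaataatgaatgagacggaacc
Ciart: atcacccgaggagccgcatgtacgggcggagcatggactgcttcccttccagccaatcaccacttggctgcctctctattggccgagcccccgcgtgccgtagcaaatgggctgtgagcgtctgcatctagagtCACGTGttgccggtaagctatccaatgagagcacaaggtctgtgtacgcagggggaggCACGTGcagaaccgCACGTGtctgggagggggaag
The Tef stretch is chr15:81811164-81811413 on the plus strand, with 1 motif, and the Ciart stretch is chr3:95882252-95882478 on the minus strand, with 3. Of the 17 clock genes with a window in the table, 5 held the motif (29.4%), against 6.86% of all 27025 genes.

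Interferon-stimulated genes, the antiviral program that type I interferon switches on, leaned the same way in nearly every member. Of 40 genes, 37 had a log2 fold change below 0, the median was -0.43, and 13 were lower and 0 higher at an unadjusted p under 0.05. Ifit1, which binds foreign RNA, had 26.8, 3.76, 28.3 and 12.2 CPM with vehicle and 7.01, 3.83, 6.06, 4.78 and 7.43 CPM with HDM201. Vehicle males 2 and 4 were high, vehicle male 3 was as low as any treated mouse, and the difference did not pass (log2 fold change -1.61, SE 0.46, edgeR FDR 0.269).

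Oas1a, a sensor of double-stranded RNA chosen after its values were seen, showed the same pattern, with 17.4, 3.70, 24.0 and 6.85 CPM with vehicle and 3.42 to 5.73 CPM with HDM201. The male log2 fold change stood at -1.45 with an edgeR FDR of 0.278, and in females it was -0.59 (edgeR FDR 0.0498). The list's median in females was -0.34. In males it ranged from -0.62 without HDM201 male 5 to -0.23 without vehicle male 4, and was -0.65 without HDM201 males 4 and 5.

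The interferon-stimulated response element was searched as a pair of GAAA runs separated by any 2 bases, on both strands of the same windows. Ifit1 and Oas1a are shown because they have the smallest p among the members that hold it outside annotated exons.
Ifit1: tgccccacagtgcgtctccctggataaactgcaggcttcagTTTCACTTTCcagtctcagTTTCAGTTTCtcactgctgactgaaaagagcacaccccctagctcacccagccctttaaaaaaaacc
Oas1a: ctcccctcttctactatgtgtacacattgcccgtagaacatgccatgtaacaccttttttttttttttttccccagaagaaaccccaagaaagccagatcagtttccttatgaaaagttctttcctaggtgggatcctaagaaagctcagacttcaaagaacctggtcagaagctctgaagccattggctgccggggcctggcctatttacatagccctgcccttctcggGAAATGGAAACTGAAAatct
The Ifit1 stretch is chr19:34640744-34640870 on the plus strand, with 2 matches on the opposite strand, and the Oas1a stretch is chr5:120907526-120907775 on the minus strand, with 2 matches that overlap. Of 28 interferon-stimulated genes with a window, 18 held the element (64.3%), against 3.46% of all genes. Like those of the STAT5 motif and the E-box, this share rests on list membership and sequence alone and says nothing about HDM201.

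Of 26 genes of glucose and insulin metabolism, 21 had a log2 fold change below 0, with a median of -0.19 (-0.12 without HDM201 male 5), and 8 were lower and 1 was higher at an unadjusted p under 0.05. Gys2, the liver glycogen synthase, had 185, 164, 166 and 230 CPM with vehicle and 118, 123, 140, 141 and 102 CPM with HDM201, without overlap (log2 fold change -0.58, SE 0.13, edgeR FDR 0.196). Old vehicle male 1, at a scaled FPKM of 35.9, lay below the 44.2 to 60.4 of the HDM201 males.

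Among 23 enzymes of the urea cycle and amino acid breakdown, 2 were higher and 4 lower at an unadjusted p under 0.05, with a median of -0.13 that ran from -0.22 without vehicle male 4 to -0.01 without vehicle male 2. Agxt, which detoxifies glyoxylate, had 190, 192, 153 and 129 CPM with vehicle and 204, 236, 277, 277 and 259 CPM with HDM201 (log2 fold change 0.60, SE 0.14, edgeR FDR 0.205). Its groups did not overlap, DESeq2 called it (adjusted p 0.0122), and old vehicle male 1 lay on the vehicle side.

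All 35 subunits of the mitochondrial respiratory chain had a log2 fold change below 0, from -0.24 to -0.01 with a median of -0.14 (-0.10 without vehicle male 5 and -0.08 without HDM201 males 4 and 5), and 5 were lower at an unadjusted p under 0.05. Ribosomal proteins, as a comparison of another abundant set, had a median of -0.04 (-0.09 to -0.01 without single mice) with 27 of 35 below 0. HDM201 male 5 had the lowest summed level of the respiratory chain, 5616 CPM, and HDM201 male 2, at 7422 CPM, exceeded 3 of the 4 vehicle males, so the sums overlapped.

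For heat shock proteins and NRF2 targets, 18 of 23 genes had a log2 fold change below 0, with a median of -0.21 (-0.11 without vehicle male 4), and 8 were lower and 0 higher at an unadjusted p under 0.05. Hspa1b, an inducible chaperone, had 9.03, 24.7, 18.5 and 42.9 CPM with vehicle and 7.30, 9.50, 8.09, 10.6 and 12.3 CPM with HDM201. Vehicle male 2 lay inside the treated range and the other 3 vehicle mice lay above it (log2 fold change -1.32, SE 0.35, edgeR FDR 0.250, DESeq2 adjusted p 0.0199). The female median was -0.22.

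Members of the response to amino acid shortage and unfolded proteins had a median of 0.30 over 29 genes, with 4 higher and 0 lower at an unadjusted p under 0.05. Atf5, a transcription factor of that response chosen after its values were seen, had 198, 464, 272 and 248 CPM with vehicle and 471, 531, 596, 350 and 516 CPM with HDM201. Vehicle male 3 lay inside the treated range, and the log2 fold change was 0.74 (SE 0.23, edgeR FDR 0.289). Phgdh, the member with the smallest p, had 1.29 (edgeR FDR 0.276), at 0.292 to 0.690 CPM with vehicle and 0.594 to 1.76 CPM with HDM201. Members chosen after their values were seen went both ways. Atf4, Ddit3, Trib3 and Chac1 had -0.14, -0.15, -0.25 and -0.41, whereas the unfolded protein genes Sdf2l1, Pdia4 and Manf had 1.17, 0.63 and 0.64. The list's median was 0.00 without HDM201 male 1 and 0.09 without vehicle male 4.

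Fat synthesis and storage genes had a median of -0.20 over 28 genes (-0.09 without HDM201 male 5), with 6 lower and 1 higher at an unadjusted p under 0.05. The higher member was Srebf1, the transcription factor that drives the pathway, at 0.35 (edgeR FDR 0.380). Angptl4, an inhibitor of lipoprotein lipase and the leading gene of the fatty acid oxidation list, had 69.9, 60.1, 67.1 and 98.1 CPM with vehicle and 37.7, 47.2, 42.4, 27.5 and 43.8 CPM with HDM201, without overlap (log2 fold change -0.89, SE 0.17, edgeR FDR 0.171). However, old vehicle male 1, at a scaled FPKM of 19.3, lay inside the 12.8 to 22.4 of the HDM201 males. Sterol biosynthesis had a median in males of -0.02 over 25 genes, with 0 genes at an unadjusted p under 0.05 in either direction, and its median in females was 0.42. The male median ran from -0.20 without HDM201 male 4 to 0.09 without HDM201 male 5.

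In xenobiotic metabolism, Ahr and Cyp2a5 had the smallest p in either direction. Ahr, the receptor for aryl hydrocarbons, had 36.2, 28.8, 34.3 and 25.8 CPM with vehicle and 39.3, 47.7, 48.7, 50.1 and 48.0 CPM with HDM201. The groups did not overlap (log2 fold change 0.58, SE 0.11, edgeR FDR 0.171), and old vehicle male 1 lay on the vehicle side. Cyp2a5, a coumarin hydroxylase with close paralogs, had -1.64 (SE 0.38, edgeR FDR 0.205), with vehicle male 3 among the treated mice at 199 CPM. The median of this list ran from -0.20 to -0.03 without single mice. Members chosen after their values were seen did not follow Ahr as a set. Cyp1a2, Tiparp and Nqo1 had -0.53, -0.20 and -0.30, and Cyp1a1 and Cyp1b1 had 0.34 and 0.49 (edgeR FDR 0.458 to 0.781).

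Transcripts of antibody-secreting cells stood higher with HDM201. Igkc, the kappa light chain, had 83.2, 33.7, 45.0 and 60.6 CPM with vehicle and 236, 126, 120, 149 and 102 CPM with HDM201 (log2 fold change 1.4, SE 0.29, edgeR FDR 0.196, DESeq2 adjusted p 0.000553). Jchain, which joins secreted antibodies, had 13.7, 8.52, 6.49 and 9.26 CPM with vehicle and 52.6, 24.8, 18.7, 20.9 and 19.5 CPM with HDM201 (log2 fold change 1.52, SE 0.34, edgeR FDR 0.196). Both separated the groups and neither passed edgeR's FDR. Ms4a1, a marker of B cells chosen after its values were seen, had a log2 fold change of 0.24 (edgeR FDR 0.796). By scaled FPKM, Igkc in old vehicle male 1 was 802, inside the 363 to 902 of the HDM201 males.

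T and NK cell markers had the highest median of any list with at least 10 members, 0.83 over 10 genes, at levels of a few CPM. HDM201 male 1 carried most of it: its summed level was 39.97 CPM, against 9.18 to 15.4 CPM in the other treated males and 7.23 to 16.7 CPM with vehicle. Without HDM201 male 1 the median was 0.22. Kupffer cell and macrophage markers had a median of 0.28 over 14 genes with 0 at an unadjusted p under 0.05, and their sums overlapped, at 297 to 858 CPM with vehicle and 412 to 1059 CPM with HDM201. The median was -0.02 without HDM201 male 5 and 0.59 without vehicle male 4, so its sign rested on HDM201 male 5. The female median of that list was -1.0, and the difference between the sexes was not tested for the list.

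Matrix and TGF-beta genes had 22 of 25 members above 0 and a median of 0.43 (0.67 without vehicle male 2), with 4 higher and 0 lower at an unadjusted p under 0.05. Col4a1, a chain of basement membrane collagen, had 22.5, 18, 16.6 and 12.9 CPM with vehicle and 24.7, 29.7, 34.6, 26.5 and 26.8 CPM with HDM201, without overlap (log2 fold change 0.70, SE 0.15, edgeR FDR 0.196). Col4a2, its partner chain, which is transcribed from the same promoter region and was chosen after its values were seen, had 0.71 (edgeR FDR 0.196). All 11 stellate cell markers and all 11 endothelial markers had log2 fold changes above 0, with medians of 0.38 (0.57 without vehicle male 2) and 0.25 (0.15 without HDM201 male 2), and their summed levels overlapped between the groups. Old vehicle male 1 had a scaled FPKM of 9.39 for Col4a1, above the 3.79 to 6.33 of the HDM201 males.

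The acute phase response, made by hepatocytes when inflammatory cytokines reach them, had 23 of 29 genes above 0 and a median of 0.40. Saa1, its most inducible member, had 51.5, 46.5, 98.2 and 55.2 CPM with vehicle and 89.0, 71.5, 61.6, 211 and 1566 CPM with HDM201. HDM201 males 5 and 4 were the highest and the other 3 lay within the vehicle range (log2 fold change 2.67, SE 0.97, edgeR FDR 0.338). Lcn2, an iron-sequestering protein chosen after its values were seen, ranked the same mice on top, at 326 and 92.4 CPM. The list's median was 0.07 without HDM201 male 5 and -0.04 without HDM201 males 4 and 5. Cebpb, a transcription factor of the response, went the other way, with a log2 fold change of -0.61 (SE 0.16, edgeR FDR 0.242).

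The cell cycle genes rested on a single mouse. Of 29 proliferation genes, 27 had a log2 fold change above 0, with a median of 0.50 and 1 gene at an unadjusted p under 0.05. That gene was Aurkb, a mitotic kinase, with 0.584, 0.353, 0.760 and 0.268 CPM with vehicle and 0.855, 0.756, 0.466, 2.53 and 1.25 CPM with HDM201 (log2 fold change 1.25, SE 0.51, edgeR FDR 0.377). The summed level was 429 CPM in HDM201 male 4, 157 to 196 CPM in the other treated males and 153 to 221 CPM with vehicle. Leaving out HDM201 male 4 turned the median to -0.06.

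Genes linked to senescence and its secretory phenotype had a median of 0.34, with 21 of 28 above 0, but 1 was higher and 2 lower at an unadjusted p under 0.05. Igfbp7, a secreted binding protein, was the higher member, at 0.41 (SE 0.13, edgeR FDR 0.289), and Igfbp4, of the same family, was lower, at -0.35 (SE 0.13, edgeR FDR 0.351). Inflammatory and NF-kB target genes had a median of 0.14, with 4 of 24 higher and 1 lower at that p, led by Tnf at under 2 CPM in every mouse. Without single mice these medians ran from 0.20 (HDM201 male 4) to 0.43 and from 0.04 (vehicle male 5) to 0.25 (HDM201 male 2), and without HDM201 males 4 and 5 they were -0.09 and -0.04.

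**Figure D3:**
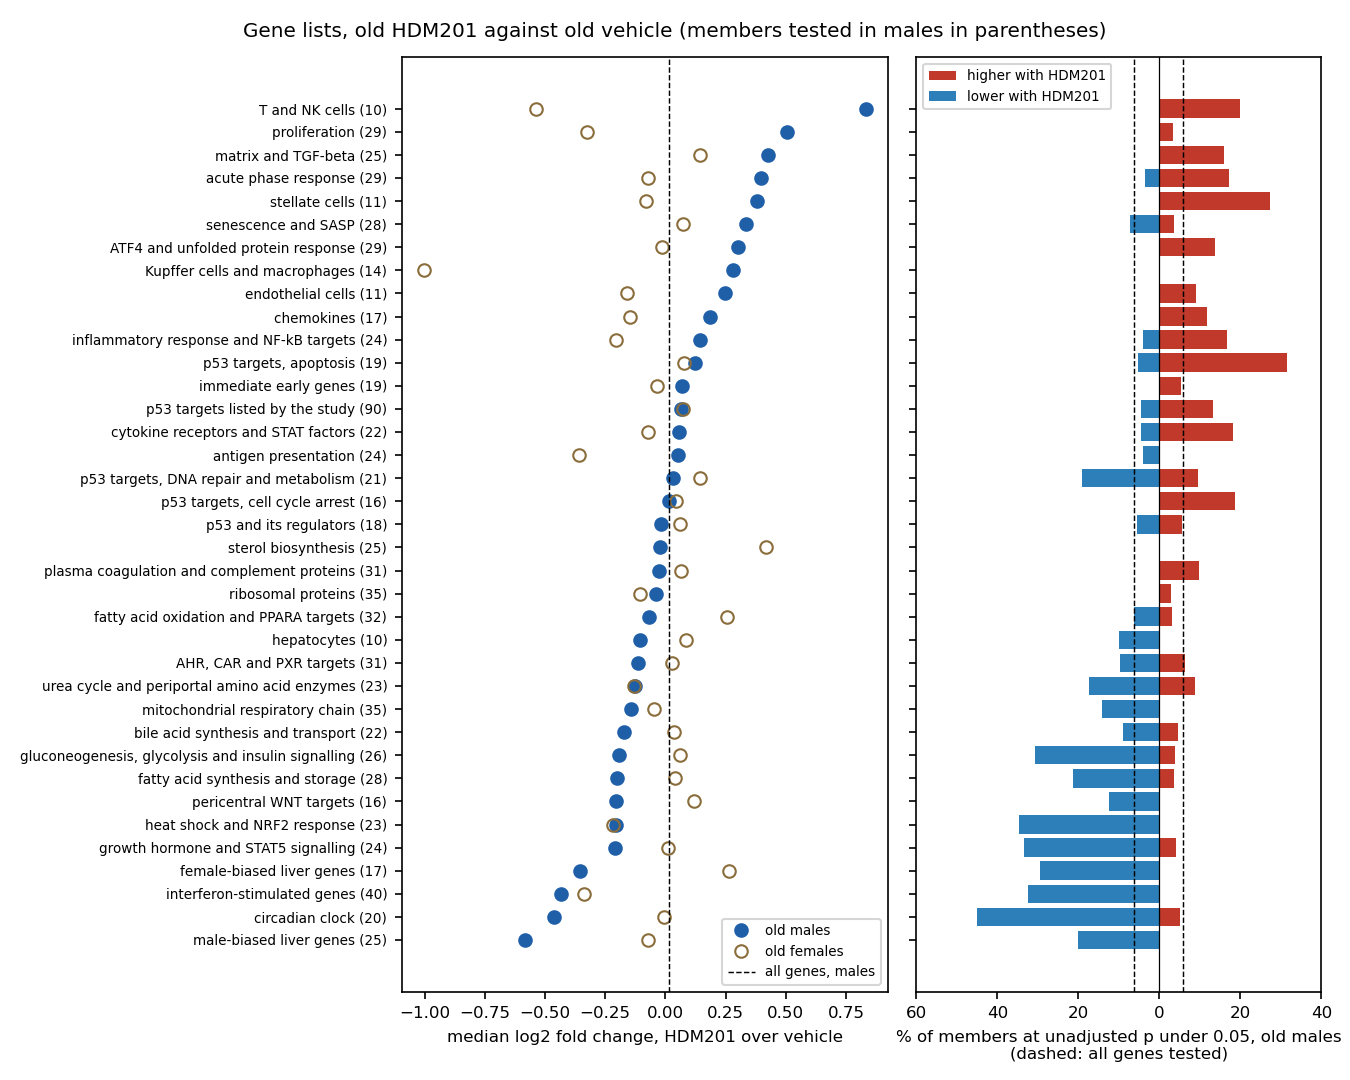
Median log2 fold change of each gene list with at least 10 tested members in old males (filled) and old females (open), and, at right, the percentage of members at an unadjusted p under 0.05 in males in each direction, with dashed lines for all genes tested. The clock, heat shock, growth hormone and interferon lists reach furthest to the lower side, at 32.5% to 45% of members, and 6 of 19 apoptosis targets of p53 are on the higher side.

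Outside the lists, the genes with the smallest p that were higher with HDM201 included Caskin2 and Kifc3. Caskin2, a scaffold protein, had 18.1, 19.7, 17.2 and 17.5 CPM with vehicle and 25.7, 27.7, 23.4, 25.4 and 28.7 CPM with HDM201 (log2 fold change 0.53, SE 0.08, edgeR FDR 0.149). Kifc3, a minus-end kinesin, had 0.69 (SE 0.12, edgeR FDR 0.149). The counts of both separated the groups, which the rule for naming them required, but Kifc3 in old vehicle male 1 had a scaled FPKM of 17.7, inside the 16.1 to 23.8 of the HDM201 males. Ldha, a lactate dehydrogenase subunit chosen after its values were seen, had 0.65 (SE 0.13, edgeR FDR 0.178).

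Those that were lower included Rgs3, Akr1c19 and Gpcpd1. Akr1c19, an aldo-keto reductase, had 139, 77.2, 126 and 140 CPM with vehicle and 59.1, 57.8, 68.4, 59.3 and 48.4 CPM with HDM201 (log2 fold change -1.04, SE 0.17, edgeR FDR 0.149), and its relative Akr1c14 had -0.69 (SE 0.13, edgeR FDR 0.163). Gpcpd1, a glycerophosphocholine phosphodiesterase, had -1.2 (SE 0.21, edgeR FDR 0.149), and Rgs3, a regulator of G protein signalling, -0.65 (SE 0.10, edgeR FDR 0.149). Prkaa2, the catalytic AMPK subunit alpha 2, had -0.57 (SE 0.10, edgeR FDR 0.163). Of the 20 genes named for the smallest p, 10 in each direction, 9 had old vehicle male 1 beyond the HDM201 range on the vehicle side by scaled FPKM, among them Cish, Rgs3, Caskin2, Hba-a2, Akr1c19 and Gpcpd1. The others of the 20, among them Enc1, Kifc3 and Bhlhe40, did not. The same share over all genes was not computed, and old vehicle male 1 stood apart from the other old males. This count therefore has no baseline and is not a replication.

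The difference of the HDM201 effect between males and females was tested over all 18 old mice with counts, which share no mouse between the sexes. It was called for 16 of 14974 genes (0.107%). In each of the 16 the male and female log2 fold changes had opposite signs, which choosing genes by their difference favours. The share with opposite signs over all genes was not computed. Some of these values were near 0, such as Rcan1 in males at 0.12 (edgeR FDR 0.672). Fnip1, a partner of folliculin in nutrient sensing, had 34.5, 23.3, 34.1 and 28.3 CPM in vehicle males and 22.5, 20.1, 23.3, 21.3 and 23 CPM in HDM201 males. Its log2 fold change was -0.45 in males and 0.47 in females, a difference of -0.93 (edgeR interaction FDR 0.0400).

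Rnf24, a ring finger protein, differed by -1.46 and Pdp2, a phosphatase that activates pyruvate dehydrogenase, by -0.93 (edgeR interaction FDR 0.0444 and 0.0456). In the other direction, Nemp2, a nuclear envelope protein, differed by 1.5 and Cd37, a tetraspanin of B cells and other leukocytes, by 1.43 (edgeR interaction FDR 0.0456 and 0.0462). Nemp2 had 0.903, 0.882, 0.760 and 0.857 CPM in vehicle males and 1.65, 1.78, 1.34, 2.47 and 1.93 CPM in HDM201 males, without overlap, while old vehicle male 1, at a scaled FPKM of 1.75, lay above the 0.462 to 0.953 of the HDM201 males. The count of 16 depended on single mice: it was 0 without vehicle female 1 or 2 or HDM201 male 1 or 5, 288 without HDM201 male 4 and 314 without vehicle female 3. The remaining mice gave 1 to 123 when left out.

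**Figure D4:**
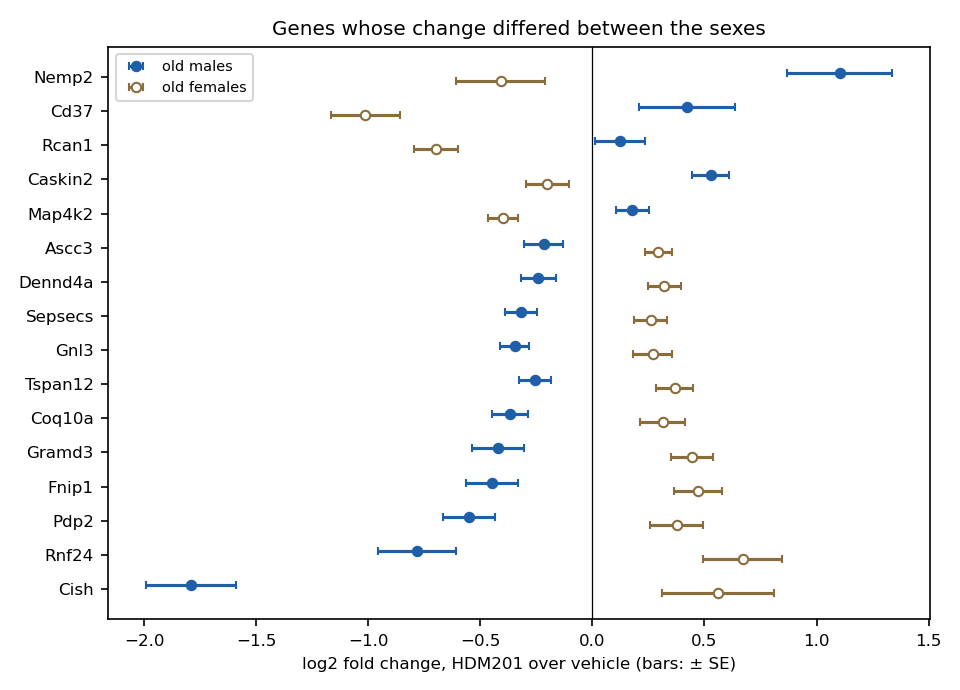
Log2 fold change of HDM201 over vehicle, with its SE, in old males (filled) and old females (open) for the 16 genes whose change differed between the sexes. Cish stands furthest out, at -1.79 in males and 0.56 in females. Each of the other genes also has its values on opposite sides of 0, which choosing genes by their difference favours.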

How the data were processed

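Liver RNA was compared between 5 old HDM201 males and 4 old vehicle males. Per the labels and the study's methods, STAR was used against mm10, and the authors counted reads per gene with HTSeq and deposited these whole-number counts unnormalized. The authors also deposited FPKM values from Cufflinks, in which old vehicle male 1 has values but no counts. Tool versions and the strand setting are not given in the sources used here, so a gene and its antisense partner may share reads, as may near-identical copies. Genes and lists were chosen with earlier results of these data known.

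Counts were filtered with filterByExpr (minimum count 10, total 15), scaled by TMM and tested with the quasi-likelihood test of edgeR 4.0.16 in R 4.3.3, with Benjamini-Hochberg FDR under 0.05 over all genes. DESeq2 1.42.0 and limma 3.58.1, the latter on voom weights and on log2(FPKM + 1) and log2(FPKM + 0.1), were alternatives, as were other filters, other samples in the fit, a replicate block and leaving out each mouse. For the range comparisons, FPKM was divided by the median ratio of each mouse to the geometric mean. Sex and treatment interaction was fitted over 18 old mice. The tests were checked on simulated counts. The 16485900 to 19671283 counts per mouse limit low genes most.

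Genes are named if they are among 14 genes of the p53 and STAT5 pathways listed by hand, are called, are among the 10 with the smallest p and no overlap in each direction at a mean of at least 1 CPM, are called for the difference between the sexes, or are the smallest p under 0.05 of a list in either direction. A few such genes are not reported here. Genes outside this rule were named after their values were seen: Akr1c14, Alas2, Cyp2a4, Hba-a1, Hbb-bs, Hbb-bt, Igfals, Jchain, Ldha, Phlda3, Prkaa2, Saa1, Serpina1e and Usp2, besides those marked so in the text. The 44 lists held 977 symbols, of which 973 were in the table. Coordinates are GENCODE M21 on GRCm38, where 54673 of 55421 identifiers had the same version. Every pair of mice within a group differed by more than sampling noise (chi-square per gene 19.7 to 91.4). The FPKM total of HDM201 male 5 was inflated by a single extreme value, so totals were not used for scaling.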

Additional observations from a re-analysis of the deposited data

Results flagged for a closer look

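Some mice lay far from the others of their group. Among 194 groups of 97 named genes, 9 held such a mouse by Dixon's test at 95%. Chance gives about 1 in 20, so this count is near what chance alone gives. In vehicle males the highest value stood apart for Rgs3 (17.7 CPM), Cdkn1a (16.3 CPM), Cfd (0.428 CPM) and Pdk4 (13.6 CPM), and the lowest for Rnf24 (6.05 CPM). In HDM201 males the highest value stood apart for 3110082I17Rik (5.22 CPM), Coq10a (22.6 CPM) and Cd37 (9.92 CPM), and the lowest for Ahr (39.3 CPM).

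For 16 genes the effect of HDM201 differed between old males and old females in edgeR's interaction test at FDR 0.0400 to 0.0462. The male log2 fold change was below the female one by these differences: Cish -2.36, Rnf24 -1.46, Pdp2 -0.93, Fnip1 -0.93, Gramd3 -0.88, Coq10a -0.69, Tspan12 -0.63, Gnl3 -0.62, Sepsecs -0.58, Dennd4a -0.57 and Ascc3 -0.52. It was above the female one for Nemp2 by 1.5, Cd37 by 1.43, Rcan1 by 0.81, Caskin2 by 0.72 and Map4k2 by 0.57.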

How the results depend on the processing

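The count of 1 called gene in old males depended on the processing. It was 0 at FDR 0.01, with robust estimation, with limma voom and without HDM201 males 4 and 5, 2 at FDR 0.10, 6 with all 6 groups in the fit, 22 with all 4 old groups, 22 with no filter and 151 with DESeq2. Leaving out single mice gave 0 to 13, with 13 without vehicle male 3. Under the replicate block and the 3 FPKM fits 1 gene was called, which was not Cish (FDR 0.109 and 0.370 to 0.690), and Cish also missed the threshold with robust estimation (0.0599), all 6 groups (0.0671), voom (0.0805) and without HDM201 males 4 and 5 (0.112). Leaving out HDM201 males 4 and 5 together and edgeR's newer spread estimate, which also called 1 gene, were chosen after seeing the data. The log2 fold change of Cish stayed between -1.92 and -1.56. Same-numbered mice correlated at -0.06, 0.23, 0.10 and -0.15, and 1 of 4 vehicle males correlated best with its own number. The labels do not say whether the numbers pair mice, and so few correlations cannot decide it.

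The count of 16 genes that differed between the sexes was 0 at FDR 0.01, 0 under the replicate block, 122 with no filter, 643 with DESeq2 and 0 to 314 without single mice.

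Of 861 values of named genes without single mice, 844 kept direction and side of the threshold, and of 1642 others 1524 did. With old vehicle male 1 included by FPKM (log2(FPKM + 1), log2(FPKM + 0.1) and scaled log2(FPKM + 1)), these reversed: Cyp39a1 0.045, 0.088 and 0.0026, Phgdh -0.59, -0.31 and -0.56, Trp53bp1 -0.14, -0.18 and -0.15, Ghr 0.048, 0.048 and 0.017, Map4k2 -0.072, -0.073 and -0.094, Aurkb -0.28, -0.13 and -0.26, Igf1 0.050, 0.050 and 0.020, Cd37 -0.47, -0.47 and -0.48, Socs1 -0.46, -0.58 and -0.43, Mdm2 -0.023, -0.022 and -0.049, and Gm28437 0.0047 in the first 2. Mdm2, at 0.00, was also below 0 with RLE factors (-0.0032), no filter (-0.0016), DESeq2 (-0.0034), 4 groups (-0.0095), 6 groups (-0.0054), without HDM201 males 4 and 5 (-0.020) and at -0.055 to 0.036 without single mice. Socs3 was -0.12 without HDM201 males 4 and 5.

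Without those 2 mice, list medians moved to -0.085 for DNA repair and metabolism targets of p53, -0.044 for NF-kB targets, -0.094 for senescence, -0.18 for proliferation and -0.81 for neutrophils, and DESeq2 gave 0.46 for chemokines. Without single mice, medians ranged from -0.13 to 0.16 (p53, arrest), 0.090 to 0.21 (p53, apoptosis), -0.041 to 0.037 (p53, DNA repair and metabolism), 0.027 to 0.069 (p53 targets the study used), -0.28 to -0.022 (growth hormone), -0.039 to 0.45 (chemokines), 0.00098 to 0.38 (ATF4), -0.27 to -0.11 (heat shock), -0.058 to 0.68 (proliferation), 0.044 to 0.48 (B and plasma cells), 0.22 to 1.04 (T and NK cells), -2.47 to -1.31 (erythroid) and -0.049 to 1.72 (adipose). The causes were not tested.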
